A study of Homo sapiens with 4 samples.

Results

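In the renal carcinoma line 786-O with VHL restored, 33 of the 12912 genes in the count table were near silent although they were present in cells without VHL. They were chosen from the readout itself, as the genes with at least 3 CPM (counts of a gene per 1000000 counts of its library) in each of the 2 786-O-Ctrl libraries and a mean under 1 CPM over the 2 786-O-VHL libraries. CYTIP also met both thresholds and was left out. The difference between the sublines therefore defines the 33 genes, and their values in the 4 libraries are given below as a description without a test. All 33 are annotated as protein coding, as are 99.7% of the count table genes found in the annotation. Among them are the arginine transporter gene SLC7A2, the leukocyte genes SLAMF7, SLAMF8 and LCP1, the cytokine genes CSF2 and CCL2, the ether lipid cleaving enzyme gene AGMO and the neuronal adhesion gene SLITRK2.

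VHL is the substrate receptor of a ubiquitin ligase that binds prolyl-hydroxylated HIF alpha subunits and sends them for degradation. Without VHL, HIF alpha subunits accumulate under normal oxygen, pair with ARNT and bind a short core motif, RCGTG, in the regulatory DNA of their target genes. Clear cell renal carcinoma commonly lacks VHL, and 786-O is a widely used line of this cancer in which HIF2α, encoded by EPAS1, is the active subunit.

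RNA was sequenced from cultured 786-O cells with the VHL-null genotype (786-O-Ctrl, n = 2) and from 786-O cells with VHL restored by a retroviral vector for HA-tagged VHL (786-O-VHL, n = 2). The labels name the triple-reporter derivative 786-OTR for all 4 libraries, so both groups also carry a stably expressed fusion of thymidine kinase, GFP and luciferase. Each group is a single transduced subline, and the duplicates are RNA extractions of it. Whether they came from separate cultures is not stated, so p-values measure the spread between these extractions, which may be technical.

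The restored gene, VHL, served as a check of the labels. Its counts were 903 in the deeper of the 786-O-Ctrl libraries and 661 in the shallower, 525 in 786-O-VHL replicate 1 and 2748 in replicate 2, and counts are given in this order throughout. On the CPM scale these were 40.8 and 42.1 against 187 and 171, so the labels matched the gene that was restored. Library totals, in the same order, were 22141263, 15714166, 2807779 and 16114120. The kidney lineage factor genes PAX8 and PAX2 were present in every library, PAX8 with 5836, 4089, 490 and 2312 counts and PAX2 with 812, 583, 103 and 464 counts in the same order. Depth mattered most in 786-O-VHL replicate 1, where a single count equals 0.356 CPM and a count of 0 allows up to 1.07 CPM (3 counts), above the threshold of 1 CPM. In the other 786-O-VHL library a count of 0 allows up to 0.186 CPM. RNA was measured in bulk, so fewer cells of a type and less RNA per cell cannot be told apart.

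Near silence meant at most 4 counts per gene in 786-O-VHL replicate 1, while in replicate 2 only 9 of the 33 genes had at most 5 counts. Summed over the 33 genes, the 786-O-Ctrl libraries held 267 and 280 CPM and the 786-O-VHL libraries 16.0 and 21.8 CPM. At the rate of the 786-O-Ctrl libraries, 786-O-VHL replicate 1 would have held between 8.97 and 172 counts per gene, and it held between 0 and 4. For 786-O-VHL replicate 2 the same rate gives between 51.5 and 985 counts, and between 0 and 30 were counted. Of the 33 genes, 6 had no count in 786-O-VHL replicate 1, 1 had none in replicate 2, and 26 had at least 1 count in both. The 2 786-O-Ctrl libraries lay within 1.25-fold of each other for 30 genes. AGMO was the 1 gene for which the 95% exact counting interval of that ratio left out equality.

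**Figure D1:**
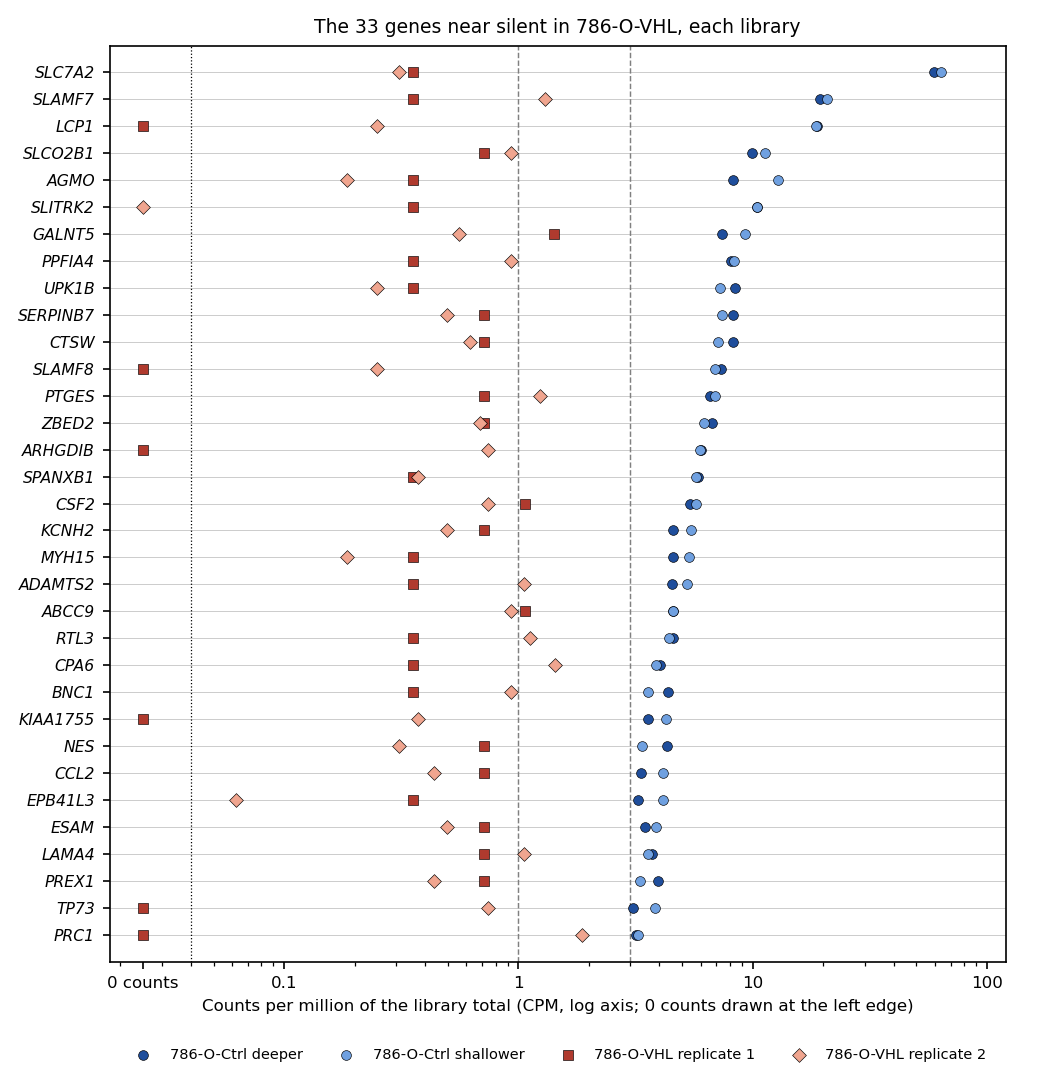
CPM (log axis) of each of the 33 genes in the 4 libraries, with genes ordered by their mean in 786-O-Ctrl and the thresholds of 1 and 3 CPM as dashed lines. Circles are the 786-O-Ctrl libraries, squares and diamonds the 786-O-VHL libraries, and symbols left of the dotted line are libraries with 0 counts. The pairs of circles lie close together, while the 786-O-VHL symbols scatter between 0 and 1.86 CPM.

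Levels in 786-O-Ctrl were low for most of the 33 genes. The mean of the 2 libraries was under 5 CPM for 15 genes, between 5 and 10 CPM for 12 and at least 10 CPM for 6, and SLC7A2 alone made up 22.5% of their summed level. Pooled over the libraries of each group, the ratio of 786-O-Ctrl to 786-O-VHL ranged from 2.02 for PRC1 to 197 for SLITRK2, with a median of 9.65. For 21 genes the lower bound of the 95% exact counting interval of this ratio was above 4. These intervals and the limits for 0 counts cover counting error only. The fitted log2 fold change of 786-O-VHL over 786-O-Ctrl had a median of -3.40 over the 33 genes and ranged from -7.69 to -1.19, while its median over all 12335 tested genes was 0.02. Scaling by library totals instead of TMM factors moved the median of all genes to 0.15, a shift of 0.133.

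**Figure D2:**
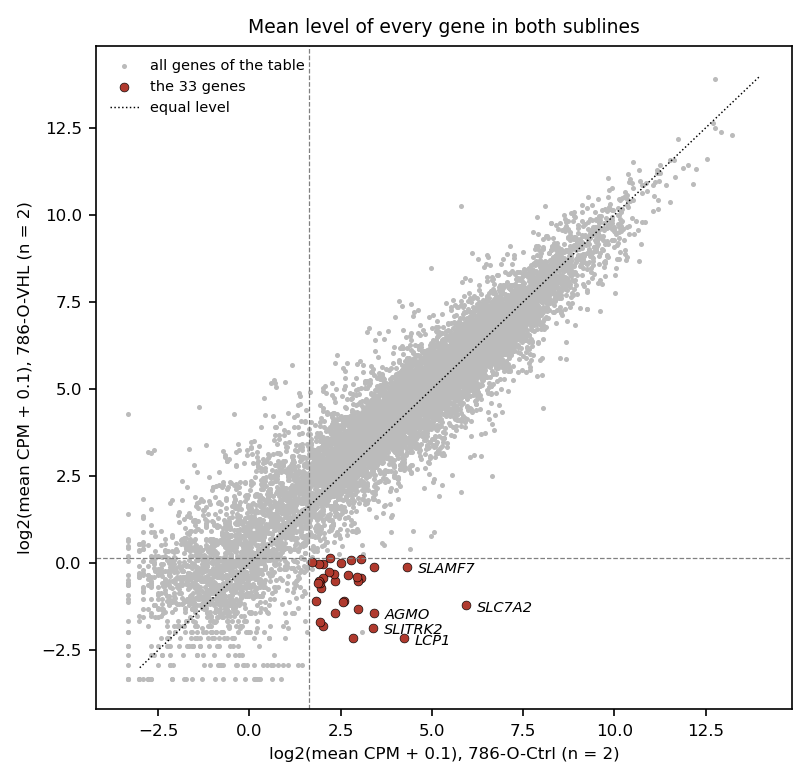
Mean level of every gene in 786-O-Ctrl (x axis) and 786-O-VHL (y axis), both as log2 of the mean CPM of 2 libraries plus 0.1, with the 33 genes in red, the 2 thresholds as dashed lines and equal levels as a dotted line. The red points fill the lower right corner that the thresholds cut out, and SLC7A2, SLAMF7, LCP1, SLITRK2 and AGMO are labelled.

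The thresholds cut through a continuous range of values. Just inside the 3 CPM threshold lay TP73 and PRC1, whose lower 786-O-Ctrl library held 3.07 and 3.16 CPM, and just outside lay DEXI and GLYATL1 with 2.94 and 2.86 CPM. On the 786-O-VHL side, ABCC9 and GALNT5 were just inside with means of 1.00 (below the threshold before rounding) and 0.992 CPM. IGFBP1 and LAPTM5 were just outside, both with a mean of 1.10 CPM. The same rule with the sublines exchanged gave 65 genes that were near silent in 786-O-Ctrl.

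Promoter sequence was examined because the core motif bound by HIF can be read from it. RefSeq windows (GRCh38.p14) from 250 bases before to 50 bases after an annotated start were matched for 26 of the 33 genes. SLC7A2, SLAMF7, CTSW, CCL2, GALNT5, ESAM and CPA6 had no window. A single window was used per gene, so other starts of a gene were not searched. The HIF core motif was searched as ACGTG or GCGTG on either strand, and it was found in 9 of the 26 windows (34.6%). It was found in 62.5% of the windows of the 10133 count table genes that matched and in 48.4% of all 27305 windows. ACGTG alone was found in 5 of the 26 windows (19.2%), against 26.0% of the count table genes and 21.6% of all windows. The AP-1 motif TGANTCA was found in 1 window, that of SLAMF8 (3.85%, against 4.72% and 7.76%). A match describes letters in this window and is not a bound site, and distal elements were not searched. The windows of 4 genes that hold ACGTG are shown as the 250 bases before the start, 5′ to 3′ on the strand of the gene, with each HIF core match in capitals. The capitals CACGTG hold a match on each strand, and CACGT is the motif on the opposite strand.
PPFIA4 (chr1:203026241-203026490, plus strand): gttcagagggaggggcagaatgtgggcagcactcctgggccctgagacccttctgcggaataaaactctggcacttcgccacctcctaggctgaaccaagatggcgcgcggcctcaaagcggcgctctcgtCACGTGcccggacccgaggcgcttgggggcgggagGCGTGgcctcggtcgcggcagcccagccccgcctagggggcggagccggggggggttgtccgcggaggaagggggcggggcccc
SLAMF8 (chr1:159826623-159826872, plus strand): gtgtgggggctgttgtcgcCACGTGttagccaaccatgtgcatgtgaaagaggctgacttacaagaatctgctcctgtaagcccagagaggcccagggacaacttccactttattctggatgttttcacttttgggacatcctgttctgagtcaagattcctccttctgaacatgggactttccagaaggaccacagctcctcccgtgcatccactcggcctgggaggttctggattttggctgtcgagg
EPB41L3 (chr18:5628992-5629241, minus strand): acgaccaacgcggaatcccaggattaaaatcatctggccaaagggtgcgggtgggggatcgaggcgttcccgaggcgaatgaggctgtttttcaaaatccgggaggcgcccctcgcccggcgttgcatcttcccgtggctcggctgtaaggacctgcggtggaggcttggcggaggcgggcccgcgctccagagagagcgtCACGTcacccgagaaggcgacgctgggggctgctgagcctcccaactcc
ABCC9 (chr12:21941427-21941676, minus strand): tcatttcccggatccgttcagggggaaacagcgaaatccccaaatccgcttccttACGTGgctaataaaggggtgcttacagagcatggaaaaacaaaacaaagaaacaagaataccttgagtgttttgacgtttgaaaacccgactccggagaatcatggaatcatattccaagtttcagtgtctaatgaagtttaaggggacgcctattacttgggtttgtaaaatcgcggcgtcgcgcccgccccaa

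The promoters of widely expressed genes are usually rich in CpG dinucleotides, and those of many tissue-restricted genes are poor in them. The ratio of observed to expected CpG had a median of 0.414 over the 26 windows, against 0.837 over the count table genes and 0.58 over all windows. It was under 0.6 in 16 of the 26 (61.5%), against 18.6% of the count table genes and 51.0% of all windows. The share with the HIF core motif also differed by composition. Among windows under 0.6 it was found in 3 of the 16 (18.8%) and in 36.9% of the count table genes, and at 0.6 or over it was found in 6 of the other 10 (60.0%) and in 68.3%. A CpG-poor and a CpG-rich window are shown by LCP1, with 2 CG dinucleotides in its 250 bases, and TP73, with 38, here with CG in capitals.
LCP1 (chr13:46182178-46182427, minus strand): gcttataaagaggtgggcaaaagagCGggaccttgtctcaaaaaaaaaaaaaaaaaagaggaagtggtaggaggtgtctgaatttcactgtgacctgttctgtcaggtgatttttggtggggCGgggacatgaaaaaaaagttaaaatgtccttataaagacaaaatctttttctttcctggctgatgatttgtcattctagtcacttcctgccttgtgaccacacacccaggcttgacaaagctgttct
TP73 (chr1:3652266-3652515, plus strand): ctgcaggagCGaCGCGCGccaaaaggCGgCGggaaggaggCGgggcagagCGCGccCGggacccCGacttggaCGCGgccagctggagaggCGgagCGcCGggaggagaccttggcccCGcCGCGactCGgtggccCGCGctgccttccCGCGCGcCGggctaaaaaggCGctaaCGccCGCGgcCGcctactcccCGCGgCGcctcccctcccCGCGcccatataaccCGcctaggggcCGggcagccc

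**Figure D3:**
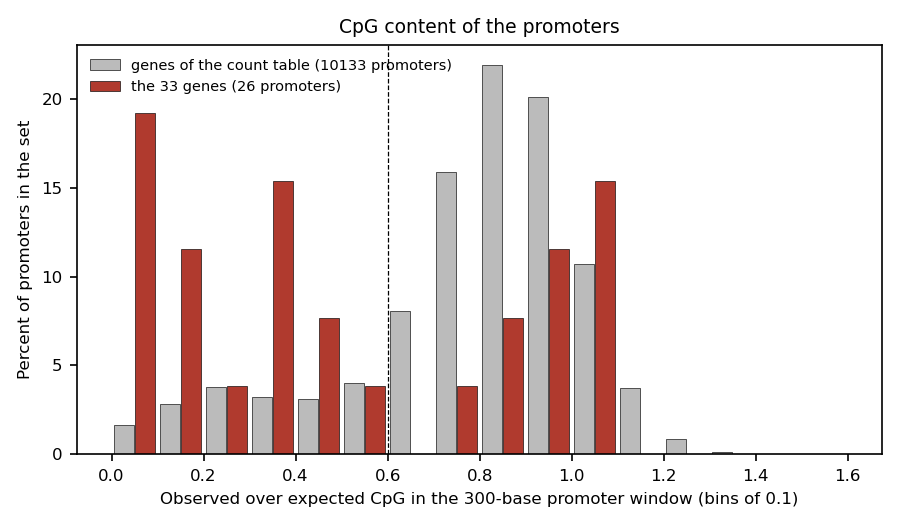
Percent of promoter windows (y axis) in each bin of observed over expected CpG (x axis, bins of 0.1), for 26 windows of the 33 genes in red and 10133 windows of count table genes in grey, with the cut at 0.6 dashed. Red bars lie on both sides of the cut, while most grey ones lie to its right.

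Of the 33 genes, 8 were grouped as leukocyte receptors, a leukocyte protease, cytokines or regulators of the cytoskeleton. Together they held 72.5 CPM in each 786-O-Ctrl library and 3.56 and 4.78 CPM in the 786-O-VHL libraries. SLAMF7 (chr1:160708847-160724611, GRCh37), a SLAM family receptor of natural killer and plasma cells, had 429 and 325 counts in 786-O-Ctrl against 1 and 21 in 786-O-VHL. SLAMF8 (chr1:159796601-159807282), a receptor of the same family found on myeloid cells, had 162 and 108 counts against 0 and 4. The pooled ratio was 17.1 for SLAMF7 (95% exact interval 11.2 to 27.5) and 33.7 for SLAMF8 (13.0 to 125). Both lie on chromosome 1, 0.902 Mb apart, and they were the closest pair among the 33. The other 9 genes of the SLAM family list, among them CD48, CD84 and LY9, are not listed in the count table.

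LCP1 (chr13:46700055-46786006) encodes L-plastin, which bundles actin filaments in leukocytes and is also made by many carcinoma lines. It had 418 and 293 counts in 786-O-Ctrl against 0 and 4 in 786-O-VHL, a pooled ratio of 88.8 (34.6 to 327). The other plastins moved little by comparison, PLS3 by a log2 fold change of -0.54 and PLS1 by 0.82 (FDR 2.62e-08 and 6.60e-09, edgeR's quasi-likelihood test with Benjamini-Hochberg adjustment over all genes tested, used for every call and FDR here). By this test 31.9% of all 12335 tested genes were lower in 786-O-VHL and 32.6% were higher, against which the counts of relatives below can be read. Per kilobase of exon, LCP1 reached 3.70 CPM in 786-O-Ctrl, while the actin bundler gene FSCN1 stood at 299 CPM per kilobase. ARHGDIB, a regulator of small GTPases in blood cells, had 133 and 94 counts against 0 and 12. Its widely expressed paralog ARHGDIA fell slightly, with a log2 fold change of -0.36 (FDR 2.23e-05). PREX1, an exchange factor for Rac, had 87 and 52 counts against 2 and 7. RAC2, the Rac GTPase of blood cells, fell by 0.89 on the log2 scale and kept 309 and 2045 counts in 786-O-VHL.

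CTSW encodes a papain-like cathepsin of cytotoxic lymphocytes and had 183 and 112 counts in 786-O-Ctrl against 2 and 10 in 786-O-VHL. Of 8 other cathepsins tested, 4 were lower and 1 was higher, with CTSS, an antigen processing protease, at -1.49 and CTSH at 1.32 on the log2 fold change scale. CSF2, which encodes the myeloid growth factor GM-CSF, had 119 and 90 counts against 3 and 12. CCL2, which encodes a monocyte chemoattractant, had 74 and 65 counts against 2 and 7. Besides CCL2, 2 CC chemokine genes were tested and both were lower, CCL26 with 64, 36, 4 and 10 counts and CCL28 with a log2 fold change of -0.68.

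The 4 membrane transport genes together held 78.5 and 85.0 CPM in 786-O-Ctrl against 2.85 and 2.67 CPM in 786-O-VHL. SLC7A2 (chr8:17354597-17428082) encodes a transporter of arginine, lysine and ornithine. It had 1315 and 1000 counts in 786-O-Ctrl against 1 and 5 in 786-O-VHL, or 59.4 and 63.6 CPM against 0.356 and 0.310 CPM, a pooled ratio of 193 (88.5 to 526). On the CPM scale this was the highest level of the 33 in 786-O-Ctrl, while per kilobase of exon SPANXB1 stood higher, at 12.4 against 7.78 CPM. The other cationic amino acid transporter gene of wide expression, SLC7A1, did not pass the test with a log2 fold change of -0.07. Of 6 tested genes of the SLC7 list other than SLC7A2, 3 were higher and 2 were lower, and the largest change was that of SLC7A7 at 1.79. Genes that use or make arginine and ornithine went in both directions, with 6 of 15 higher and 4 lower. ASS1, which makes the precursor of arginine, rose with a log2 fold change of 2.57, while OAT, SRM and SMS, which act on ornithine and polyamines, had values of -0.86, -0.90 and -0.88.

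SLCO2B1, an uptake transporter of organic anions, had 220 and 177 counts in 786-O-Ctrl against 2 and 15 in 786-O-VHL. Among its relatives SLCO4A1 was lower by a log2 fold change of -1.68 and SLCO2A1, a prostaglandin transporter, was higher by 1.30. KCNH2, the hERG potassium channel, had 101 and 86 counts against 2 and 8. KCNH1 and KCNH3 were called in the opposite direction, KCNH1 with 69, 75, 49 and 421 counts and KCNH3 with 25, 8, 10 and 99 counts. ABCC9, the regulatory subunit of an ATP-sensitive potassium channel, had 101 and 72 counts against 3 and 15. Of its channel partners, KCNJ11 had 2, 0, 2 and 32 counts, and KCNJ8 had 3, 9, 1 and 3 counts and was not tested. The drug exporter gene ABCC3 was higher with a log2 fold change of 1.29.

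A further 6 genes encode enzymes of lipids and glycans, secreted proteases or a protease inhibitor. AGMO (chr7:15239942-15601640) encodes the monooxygenase that cleaves ether lipids with tetrahydrobiopterin as its cofactor. It had 183 and 202 counts in 786-O-Ctrl against 1 and 3 in 786-O-VHL, a pooled ratio of 48.1 (18.6 to 177). Its CPM in the shallower 786-O-Ctrl library was 1.56 times that in the deeper one (95% exact interval 1.27 to 1.91). Of 13 tested genes of ether lipid and tetrahydrobiopterin metabolism, 8 were lower and 2 were higher. SPR, which makes tetrahydrobiopterin, and TMEM189, which makes plasmalogens, had log2 fold changes of -0.74 and -0.95, while GCH1, the entry enzyme of tetrahydrobiopterin synthesis, had 0.53.

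PTGES, the inducible prostaglandin E synthase, had 146 and 109 counts in 786-O-Ctrl against 2 and 20 in 786-O-VHL. Of 8 other prostaglandin E2 genes tested, 3 were lower, including the cyclooxygenase gene PTGS1 at -0.91, and 3 were higher, including the uptake transporter gene SLCO2A1 at 1.30 and the exporter gene ABCC4 at 0.68. GALNT5, which starts mucin-type O-glycans, had 164 and 145 counts against 4 and 9. Of 12 other polypeptide GalNAc transferase genes, 10 were lower, led by GALNT2 at -1.40, GALNT18 at -1.17 and GALNT7 at -1.06, and 1, GALNT15 with 7, 3, 8 and 27 counts, was higher.

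ADAMTS2, the procollagen N-proteinase, had 100 and 82 counts in 786-O-Ctrl against 1 and 17 in 786-O-VHL. Relatives of ADAMTS2 went in both directions, with 5 of 11 higher and 3 lower, and ADAMTS10 and ADAMTS15 rose with log2 fold changes of 3.11 and 2.95. CPA6, an extracellular carboxypeptidase, had 89 and 61 counts against 1 and 23, a pooled ratio of 3.12 (2.02 to 5.03). That was the next to lowest ratio among the 33, and the 23 counts in 786-O-VHL replicate 2 equal 1.43 CPM. SERPINB7, a clade B serpin, had 183 and 116 counts against 2 and 8. Of 4 others of the clade that were tested, SERPINB9 and SERPINB1 were higher by 1.34 and 0.78 on the log2 scale and SERPINB8 was lower, at -0.65.

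Another 6 genes encode neuronal adhesion and scaffold proteins or parts of the cytoskeleton. SLITRK2 (chrX:144899347-144911374), a leucine-rich repeat protein of synapses, had 230 and 164 counts in 786-O-Ctrl against 1 and 0 in 786-O-VHL, a pooled ratio of 197 with a wide interval (35.1 to 7798). SLITRK5 and SLITRK1 were lower as well, with 57, 41, 3 and 8 counts and 70, 43, 9 and 13 counts, whereas SLITRK4 had a log2 fold change of 0.51 (FDR 0.011). Per kilobase of exon, SLITRK2 and SLITRK4 stood at the like levels of 0.876 and 0.858 CPM in 786-O-Ctrl, and at 0.0150 and 1.40 CPM in 786-O-VHL. PPFIA4, the liprin whose promoter window held 3 HIF core matches, had 178 and 131 counts against 1 and 15. Of 4 other liprins tested, 3 were higher, by log2 fold changes between 0.34 and 1.51.

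EPB41L3, a protein 4.1 family linker of membrane and spectrin skeleton, had 72 and 65 counts in 786-O-Ctrl and 1 in each 786-O-VHL library, a pooled ratio of 34.2 (9.30 to 286). Of its 6 relatives, 4 were higher and EPB41L2, the most abundant, was lower by 0.36 on the log2 scale. NES, the intermediate filament nestin of progenitor cells, had 95 and 53 counts against 2 and 5. In its list 6 of 7 other intermediate filament genes were lower, among them LMNB1 at -1.69, NEFL at -1.33 and VIM at -1.21, and GFAP was higher. MYH15, a myosin heavy chain, had 101 and 84 counts against 1 and 3. MYH13 had 28 and 25 counts in 786-O-Ctrl and none in 786-O-VHL, at least 8.83-fold lower with a floor of 3 counts over the group, and the abundant non-muscle MYH9 fell by 1.39 on the log2 scale.

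PRC1 (chr15:91509270-91538859), which crosslinks microtubules of the spindle midzone, stood apart from the other 32. It had 70 and 51 counts in 786-O-Ctrl against 0 and 30 in 786-O-VHL, so that replicate 2 held 1.86 CPM and replicate 1 held none. Its pooled ratio of 2.02 (1.34 to 3.12) was the lowest of the 33. In the GRCh37 annotation 57.6% of its exon bases are shared with another gene on the same strand and 34.3% with one on the opposite strand. AC068831.7, which overlaps it, had 125, 101, 8 and 30 counts. How reads of shared exons were assigned is not given in the sources used here, so the counts of PRC1 are uncertain.

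Another 3 genes encode surface or basement membrane proteins. UPK1B, a tetraspanin of urothelial plaques, had 186 and 114 counts in 786-O-Ctrl against 1 and 4 in 786-O-VHL, a pooled ratio of 30.0 (12.7 to 93.0). ESAM (chr11:124622479-124632186), an adhesion molecule of endothelial tight junctions, had 77 and 61 counts against 2 and 8. In the junctional adhesion family JAM3 was also lower, with 34, 32, 0 and 6 counts, while CXADR was higher by 1.78 on the log2 scale. LAMA4, a laminin chain of vascular basement membranes, had 82 and 56 counts against 2 and 17. Other laminin chains went both ways, LAMA5 at 1.94 and LAMB1 at 1.02 against LAMB3 at -1.37.

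Of the last 6 genes, 3 encode transcription factors or proteins derived from a transposase. TP73, a transcription factor, had 68 and 60 counts in 786-O-Ctrl against 0 and 12 in 786-O-VHL. BNC1, a zinc finger protein of keratinocytes and germ cells, had 96 and 56 counts against 1 and 15. ZBED2, a transposase-derived zinc finger protein, had 149 and 97 counts against 2 and 11. The other 3 have less settled functions. RTL3, derived from a retrotransposon, had 101 and 69 counts against 1 and 18, and its relative PEG10 was lower by a log2 fold change of -2.46 from a level of 17553 and 11811 counts. SPANXB1, a testis gene of the X chromosome, had 129 and 90 counts against 1 and 6, and KIAA1755 had 79 and 67 counts against 0 and 6. SPANXB1 belongs to a family of nearly identical copies, and its counts are uncertain for that reason.

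Over all 24 families, 300 genes were listed, and 133 that are not among the 33 could be tested. Of these, 56 were lower in 786-O-VHL (42.1%), 45 were higher (33.8%) and 32 were not called. Over all 12335 tested genes, 31.9% were lower and 32.6% were higher, so the share of relatives that fell was 10.2 percentage points above that of all genes, and the share that rose was close to it. With library totals in place of TMM factors, 50 relatives were lower and 53 higher, beside 25.1% and 41.2% of all genes. The median log2 fold change of the relatives was -0.11. In the 3 pathway lists 15 of 36 genes were lower (41.7%) and 11 were higher (30.6%), or 11 and 12 with library totals.

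**Figure D4:**
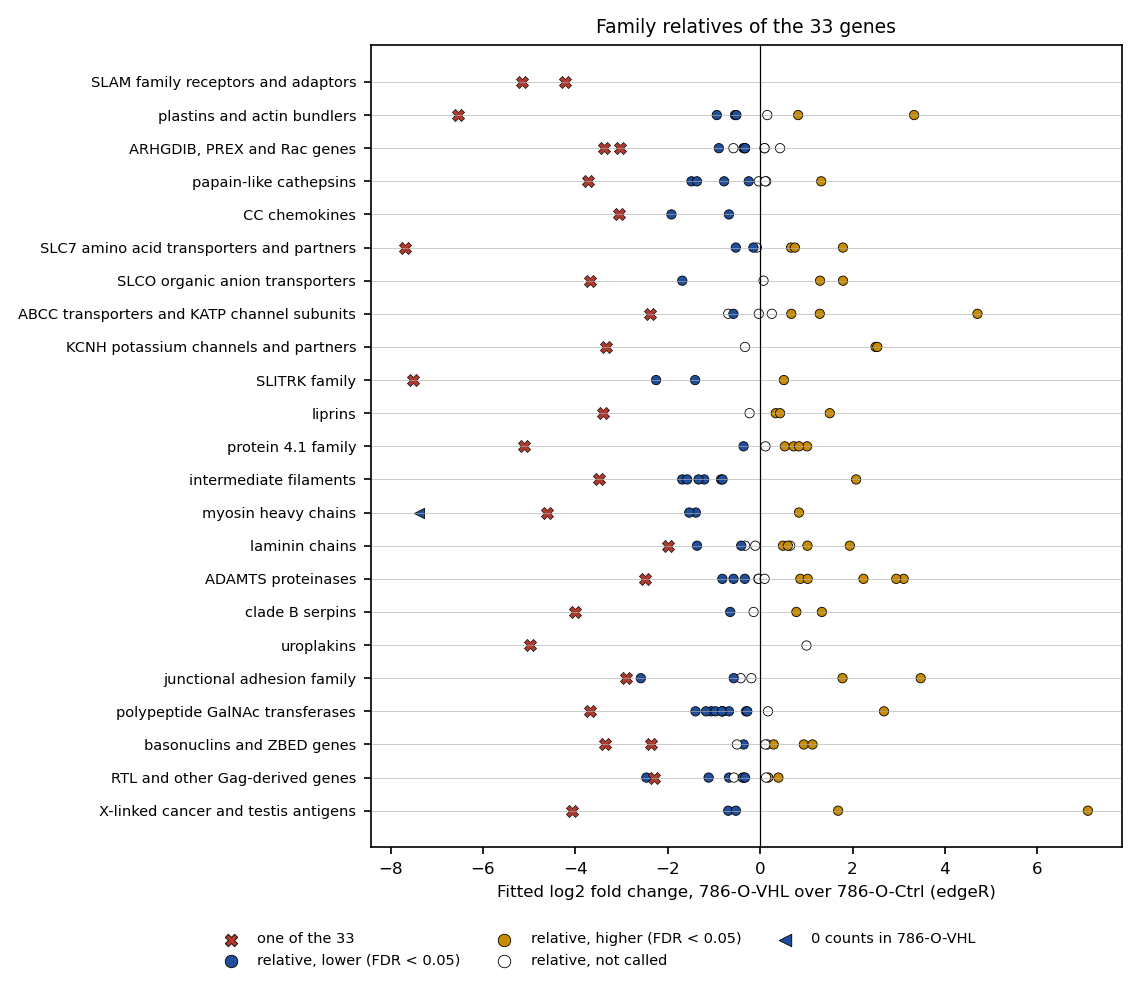
Fitted log2 fold change of 786-O-VHL over 786-O-Ctrl (x axis) for the tested genes of the families shown (rows), with genes of the 33 as red crosses, relatives called lower in blue, called higher in orange and not called in white. The blue triangle is MYH13, which had 0 counts in 786-O-VHL. Relatives lie on both sides of 0 in most families. A cross lies farthest to the left in every family shown except the myosin heavy chains (MYH13) and the Gag-derived genes (PEG10). The 33 were chosen by this same difference, so the position of the crosses is largely set by the rule.

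Several of the 33 are leukocyte or endothelial genes, and markers of those cell types were therefore read in every library. Of 42 leukocyte genes 19 were listed in the count table, 5 of them among the 33. The defining genes PTPRC, CD53 and SPI1 are not listed, and CORO1A had 30, 18, 1 and 4 counts. Without the 33, the leukocyte genes summed to 292 CPM in each 786-O-Ctrl library and to 233 and 248 CPM in the 786-O-VHL libraries, and none of those 14 genes was at 0 in 786-O-Ctrl. RAC2 made up 206 CPM of each 786-O-Ctrl sum and 110 and 127 CPM of the 786-O-VHL sums. Without it the other 13 genes were higher in 786-O-VHL as a sum, with 85.4 and 86.8 CPM against 123 and 121 CPM. CD74 alone made up 12.2 and 9.35 CPM of these 786-O-Ctrl sums and 75.5 and 59.8 CPM of the 786-O-VHL sums. Of the 14 genes 11 were tested, of which 7 were lower and 2 were higher. The lower ones were led by LAPTM5 at -2.80 and CSF1R and CORO1A, both at -2.35. The higher ones were CD74 at 2.42 and ITGB2 at 1.56. Of 28 endothelial genes 14 were listed. CDH5 and VWF are not listed, and PECAM1 had 9, 4, 1 and 6 counts and KDR 7, 3, 0 and 6 counts. Without ESAM and LAMA4, these genes summed to 71.9 and 76.3 CPM against 46.7 and 65.6 CPM, with 5 of 8 lower, including APLN at -3.24, and 2 higher. Without APLN the sums were 50.8 and 53.01 CPM against 45.9 and 62.7 CPM, and the sublines overlapped. EGFL7, 1 of the higher genes, made up 27.8 and 27.7 CPM of these 786-O-Ctrl sums and 32.1 and 43.3 CPM of the 786-O-VHL sums.

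Markers of neural and of fibroblast or mural cells did not fall as sums. Without SLITRK2 and NES, the neural genes summed to 83.7 and 86.0 CPM in 786-O-Ctrl and to 170 and 169 CPM in 786-O-VHL. Of 11 that were tested, 4 were lower and 4 were higher. MAP2 was among the higher ones, at 3.26 on the log2 fold change scale. It made up 5.60 and 4.33 CPM of the 786-O-Ctrl sums and 54.1 and 52.7 CPM of the 786-O-VHL sums. Among the lower ones were SLITRK5 at -2.25, SLITRK1 at -1.41 and the defining gene RBFOX3 at -1.38. RBFOX3 had 74, 57, 2 and 26 counts. Without ABCC9 and ADAMTS2, the fibroblast and mural genes summed to 27.6 and 27.9 CPM against 40.2 and 38.4 CPM, with 1 of 8 lower and 3 higher. The 16 renal identity genes summed to between 4127 and 4457 CPM in the 4 libraries, and EPAS1 RNA rose with 6708, 4959, 2398 and 14420 counts. These counts do not measure protein, and by Western blot the paper reported less HIF2α protein in 786-O cells with VHL. Over all 5 marker lists, 24 of 54 genes were lower (44.4%) and 17 were higher (31.5%), beside 31.9% and 32.6% of all tested genes. With 10 counts required in every library, 11 of 32 were lower (34.4%) and 15 were higher (46.9%), beside 33.6% and 34.3% of all genes. The part of any other cell type in the levels of the 33 genes was not tested.

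Genes that lie beside the 33 in the genome were read next, and the shares below are a description without a test of the difference. Within 250 kb of 1 of the 33 in the GRCh37 annotation, 139 other genes were tested, of which 72 were lower (51.8%) and 28 were higher (20.1%), against 31.9% and 32.6% of all tested genes. The median log2 fold change of these neighbours was -0.25. Within 100 kb 54.4% of 79 genes were lower and within 500 kb 43.0% of 249 were. Neighbours of CTSW, which lies in a gene-dense stretch of chromosome 11, accounted for 21 of the 139, and 16 of those were lower. Without them 56 of 118 were lower (47.5%) and 27 were higher (22.9%).

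Of 9 tested genes within 250 kb of ESAM, 4 fell in 786-O-VHL and 3 rose. VSIG2, 0.328 kb from ESAM, had 23 and 17 counts in 786-O-Ctrl and none in 786-O-VHL, at least 6.67-fold lower with a floor of 3 counts over the group. NRGN, 5.37 kb from ESAM, had 661, 473, 21 and 66 counts and a log2 fold change of -2.81 (FDR 2.32e-14). ROBO4, which lies 121 kb from ESAM, had 61, 44, 1 and 9 counts, and MSANTD2, 4.21 kb away, did not pass the test with 226, 186, 37 and 185 counts. The 3 that rose were SIAE, TBRG1 and ROBO3, with log2 fold changes of 0.50, 0.65 and 0.72. ROBO4, MSANTD2 and these 3 were chosen after their values were seen. Beside SLC7A2, PDGFRL at 5.86 kb had 37, 11, 0 and 1 counts. Neighbours that rose included LBP, 85.7 kb from KIAA1755, with 18, 3, 13 and 85 counts, and FYN, 234 kb from LAMA4, with 306, 260, 182 and 1082 counts.

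**Figure D5:**
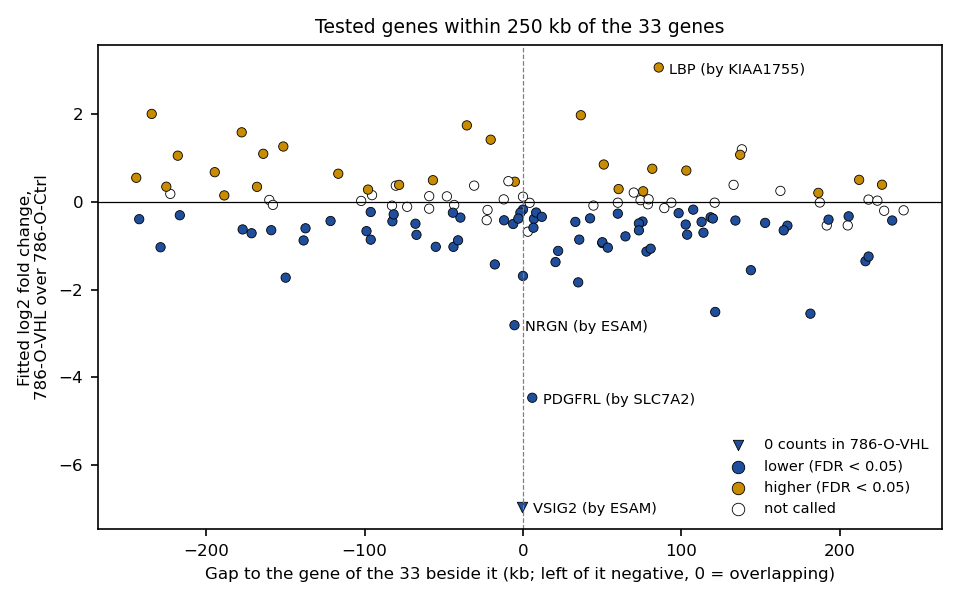
Fitted log2 fold change of 786-O-VHL over 786-O-Ctrl (y axis) for each tested gene within 250 kb of 1 of the 33, against its gap in kb to that gene (x axis, negative to the left, 0 for overlap). Blue marks genes called lower, orange higher and white not called, and the triangle is VSIG2 with 0 counts in 786-O-VHL. NRGN, PDGFRL and VSIG2 lie lowest, at gaps of 5.37, 5.86 and 0.328 kb.

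Of the 33 genes, 19 overlap another annotated gene, 10 on the same strand and 18 on the opposite strand. No more than 10% of exon bases were shared with another gene on either strand for 29 of them. The exceptions were PRC1, SLITRK2 with 20.5% on the same strand, SLAMF8 with 72.7% on the opposite strand and LCP1 with 19.0% on the opposite strand. Whether the counting used strand is not stated, so sense and antisense reads of SLAMF8 and LCP1 cannot be told apart. AL590560.1, which overlaps SLAMF8, had 8, 11, 0 and 9 counts.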

How the data were processed

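Total RNA was sequenced from 2 libraries each of both sublines. Per the submitters' processing notes, CASAVA and STAR were used with hg19, and the paper used DESeq2. The authors deposited raw counts per gene, not normalized. Which program counted the reads, with which annotation and strand setting, is not given in the sources used here. Both 786-O-Ctrl columns carry the same replicate number and are called deeper and shallower.

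CPM were computed on library totals. The test was that of edgeR 4.0.16 under R 4.3.3 (filterByExpr with a minimum count of 10, TMM, quasi-likelihood F test, group as the only term, Benjamini-Hochberg over 12335 genes, called at FDR < 0.05), and 577 genes were not tested. With 2 libraries against 2 an exact permutation test cannot go below 0.333. Pooled ratios carry exact binomial intervals (SciPy 1.17.1). In data simulated for this comparison (12335 genes), edgeR recovered 90 of 100 genes changed 2-fold and 100 of 100 changed 8-fold, with 6 false calls. Only these genes were changed, as many up as down, with the dispersion fitted to these duplicates. In the real comparison 31.9% of genes were called lower and 32.6% higher, so the false calls there cannot be read from the simulation. Coordinates and overlaps come from a GRCh37 annotation in which 12749 of 12912 identifiers were found, and promoter windows from RefSeq (GRCh38.p14), matched by symbol.

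The 33 genes, their relatives, pathways and marker lists were chosen with earlier results of these data known. Named genes are the 33, the genes nearest each threshold, at most 3 per direction of each list and of the neighbours past FDR < 0.01, relatives with the highest level per length, VHL, and defining markers. Also named, after their values were seen, are SLC7A1, SLITRK4, KCNJ8, AC068831.7, AL590560.1 and VIM as an intermediate filament. The ESAM neighbours MSANTD2, ROBO4, SIAE, TBRG1 and ROBO3 were named in the same way. Alternatives were DESeq2 1.42.0, limma-voom (limma 3.58.1), other scalings, filters and thresholds, thinning, other distances and each library left out. Some genes of the lists are not reported here.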

Additional observations from a re-analysis of the deposited data

How the results depend on the processing

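How many genes met the rule depended on its thresholds and on depth. With 2 or 5 CPM required in each 786-O-Ctrl library, 65 and 17 genes met it, and with a mean under 0.5 or 2 CPM in 786-O-VHL, 12 and 89 did. TMM and RLE factors gave 34 and 35 genes, in each case with all 33. Pooled counts gave 30 genes, 27 of them among the 33, and thinning every library to the shallowest gave 29, 23 of them among the 33. Leaving out 1 library gave between 29 (without 786-O-VHL replicate 1, 26 of them among the 33) and 41 genes (without 786-O-VHL replicate 2, 30 of them among the 33). The median log2 fold change of the 33 was -3.76 without 786-O-VHL replicate 2, between -3.44 and -3.42 without 1 of the other libraries, and -3.27 with library totals alone. At 10 counts in every library none of the 33 could be tested, by construction.

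DESeq2 called 7 pathway genes and 11 marker genes higher. Without 786-O-VHL replicate 2, 11 marker genes were higher, and with 10 counts in every library 11 of 32 were lower. Within 100 kb 43 neighbours were lower and 12 higher, and within 500 kb 61 were higher. With 1 library left out at a time, between 55 and 71 neighbours within 250 kb were lower and between 19 and 28 were higher. The share of neighbours called lower exceeded that of all genes by 13.8 to 20.6 percentage points under every other setting of the fit, and that of relatives by 7.82 to 14.5. For markers the excess ranged from 0.768 with 10 counts in every library to 15.6. Library totals alone changed the split over all genes to 25.1% lower and 41.2% higher. Leaving out the neighbours of CTSW, RAC2 and APLN was chosen after seeing the data. The cause of these changes was not tested. The fit with a replicate block was not run. No paired analysis was possible because both 786-O-Ctrl columns of the count table carry the same replicate number.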
